A study of Saccharomyces cerevisiae with 24 samples.

Results

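Ammonium assimilation in budding yeast was followed through the RNA levels of 6 genes, GLN1, GDH1, GDH3, GDH2, GLT1 and IDP1, out of 6612 transcripts in an RNA-seq table. The genes were chosen by their symbols as enzymes of this pathway, and the set was drawn up with the low GLN1 level in raffinose already known. The difference between raffinose and YPD is therefore given as a description, without a test. RNA-seq was performed in 3 strains that the labels place in the cell line LPY and that differ in the MYC-tagged SFP1 gene marked with KanMX: WT Sfp1, K655/657R, in which arginines that cannot be acetylated replace both lysines, and K655/657Q, in which glutamines mimic acetyl-lysine. Sfp1 is a zinc finger activator of ribosome biogenesis genes. For all 3 strains the labels also list can1-100 and the auxotrophic alleles ura3-1, trp1-1, leu2-3,112, his3-11,15 and ade2-1. The strain table of the study gives other alleles of HIS3, TRP1 and URA3 for the LPY parent and does not list ade2-1 or can1-100 for it, so that only leu2-3,112 is common to both sources. Each strain was sampled in YPD with 2% glucose, after about one generation in the same rich medium with 2% raffinose, and 15 and 30 min after glucose was added back to 2%, with 2 libraries per strain and condition and 24 libraries in all. The comparisons ask how these genes respond to the carbon source and whether the acetylation state of Sfp1 alters that response.

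Yeast fixes ammonium in 2 steps. Glutamate dehydrogenases that use NADPH, Gdh1 and its paralog Gdh3, join ammonium to 2-oxoglutarate to form glutamate, and the glutamine synthetase Gln1 adds a further ammonium at the cost of ATP. Glt1, the glutamate synthase, makes glutamate from glutamine and 2-oxoglutarate with NADH, Gdh2 runs the NAD-dependent reverse reaction that releases ammonium from glutamate, and the mitochondrial isocitrate dehydrogenase Idp1 is a source of 2-oxoglutarate and NADPH. GATA factors such as Gln3 and Gat1, the amino acid starvation factor Gcn4, the Hap complex and Rtg1-Rtg3 are known regulators of genes in this pathway.

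All 6 genes have a single coding exon in the R64 reference. GLN1 (YPR035W) lies on chromosome XVI from 642208 to 643320 on the forward strand, GDH3 (YAL062W) on chromosome I from 31567 to 32940 on the forward strand, and IDP1 (YDL066W) on chromosome IV from 334835 to 336121 on the forward strand. GDH1 (YOR375C) lies on chromosome XV from 1041678 to 1043042, GDH2 (YDL215C) on chromosome IV from 70640 to 73918 and GLT1 (YDL171C) on chromosome IV from 149203 to 155640, all on the reverse strand. The GDH1 and GDH3 coding sequences were 76.7% identical over aligned bases and 87.2% identical over aligned residues. Of the 31-base words of GDH1, 5 (0.375%) also occur in GDH3, so that few reads can fail to separate the paralogs, and the coding sequences of the other 4 genes shared none.

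Regions upstream of 4 genes are shown because GLN1, GDH1 and GDH2 differed between K655/657Q and WT in YPD while GDH3, the paralog of GDH1, did not pass the same test. Each stretch of 300 bases runs from 400 to 101 bases before the start codon and is written 5′ to 3′ on the strand of the gene, from the R64 reference. Capitals mark matches on either strand to the letters GATAAG for Gln3 and its relatives, TGACTC for Gcn4, CCAAT for the Hap complex and GTCAC for Rtg1-Rtg3.
GLN1, chromosome XVI: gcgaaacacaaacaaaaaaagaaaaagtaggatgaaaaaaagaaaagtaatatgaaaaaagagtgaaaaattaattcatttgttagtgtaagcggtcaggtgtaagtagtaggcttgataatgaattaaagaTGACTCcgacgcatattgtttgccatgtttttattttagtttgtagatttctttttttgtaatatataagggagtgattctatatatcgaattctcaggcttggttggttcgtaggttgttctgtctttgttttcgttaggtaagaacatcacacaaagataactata
GDH1, chromosome XV: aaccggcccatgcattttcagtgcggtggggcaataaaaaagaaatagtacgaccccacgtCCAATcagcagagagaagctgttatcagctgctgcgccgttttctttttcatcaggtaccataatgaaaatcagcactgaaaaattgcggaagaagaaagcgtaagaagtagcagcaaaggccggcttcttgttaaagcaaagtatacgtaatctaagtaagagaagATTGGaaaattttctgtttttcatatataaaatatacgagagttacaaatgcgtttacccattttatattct
GDH2, chromosome IV: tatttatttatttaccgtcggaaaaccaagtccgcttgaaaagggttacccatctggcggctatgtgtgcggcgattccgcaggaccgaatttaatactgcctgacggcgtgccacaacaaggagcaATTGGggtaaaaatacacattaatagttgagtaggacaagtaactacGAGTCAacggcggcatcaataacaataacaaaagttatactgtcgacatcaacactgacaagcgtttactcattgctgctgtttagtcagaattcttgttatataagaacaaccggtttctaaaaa
GDH3, chromosome I: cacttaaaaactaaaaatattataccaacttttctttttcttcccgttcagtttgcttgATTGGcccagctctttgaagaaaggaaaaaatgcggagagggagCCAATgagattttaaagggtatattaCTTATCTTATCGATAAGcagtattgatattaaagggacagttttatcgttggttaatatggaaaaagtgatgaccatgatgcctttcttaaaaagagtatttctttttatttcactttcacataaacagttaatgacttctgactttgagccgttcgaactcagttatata
The GLN1 window holds 1 TGACTC match and the GDH2 window holds 1 such match on the opposite strand, and the IDP1 window holds 1 as well, against 8.57% of the 5916 windows of this kind in the genome with at least 1. GDH3 holds 3 matches to GATAAG within a single run of capitals, in which the first and the second share a base, and GLT1 and IDP1 hold 1 each, against 14% of all windows. No GATAAG match lies in these windows of GLN1, GDH1 or GDH2. CCAAT was matched in GDH1 (2), GDH2 (1), GDH3 (2) and IDP1 (1), against 44.3% of all windows, and GTCAC only in IDP1, against 29.4%. The GDH1 window overlaps the open reading frame YOR376W. A match is a run of letters and was not tested as a binding site.

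Values are TPM, the estimated number of transcripts of a gene in every 1000000, which the authors computed with Kallisto. They are scaled by length, so that levels of different genes can be compared within a library. Each library sums to 1000000 TPM, so the number of reads and the counting error are unknown, and fewer expressing cells and less RNA per cell cannot be told apart. TPM were divided here by a median-of-ratios factor per library and are called scaled TPM below. K655/657R 30 min replicate 2 stood apart. Across genes, its root mean square log2 difference from its partner was 0.75, against 0.16 to 0.24 in the other 11 pairs, and this difference correlated with gene length at a Spearman rho of -0.58. Its deposited GLN1 level was 73.8 TPM against 240 TPM in replicate 1. The study left this library out as an outlier, and so did all fits here, which leaves 23 libraries and a single library for K655/657R at 30 min, whose values carry no error. The carbon source markers fitted the raffinose and pulse labels: the invertase gene SUC2 in WT was at 1847 ± 177 scaled TPM in raffinose and 4.78 ± 0.090 at 15 min (SD, n = 2 each). SFP1 itself was at 12 ± 0.65 in WT and 15.5 ± 1.2 in K655/657Q in YPD, a log2 change of 0.35 (SE 0.068, limma adjusted p = 6.88e-04) that stayed under the fold threshold.

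**Figure D1:**
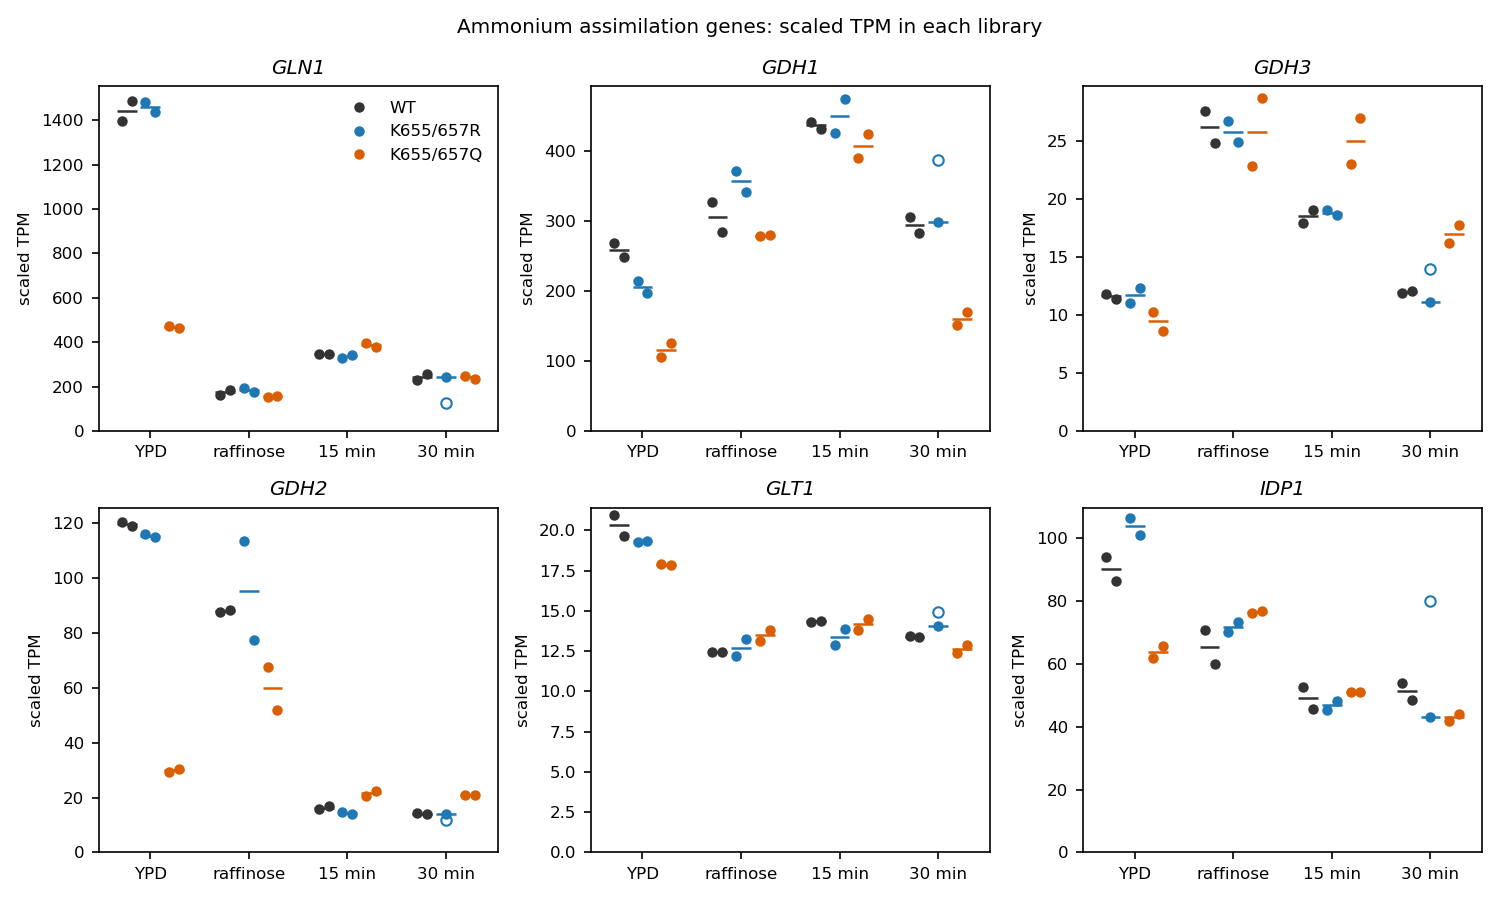
Scaled TPM (y axis, from 0) of the 6 genes in each library by condition (x axis). Points are single libraries, bars are means, colors are strains, and the open circle is K655/657R 30 min replicate 2, scaled with all 24 libraries and left out of the fits. GLN1 is highest in YPD in WT and K655/657R, at 1399 to 1487, and lower in every other group.

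GLN1 was the most abundant of the 6 transcripts in YPD and lost that place in raffinose. In WT it reached 1399 and 1487 scaled TPM in the 2 YPD libraries, and 161 and 187 in raffinose. In K655/657R the YPD libraries had 1484 and 1440 and the raffinose libraries 192 and 177. In K655/657Q the YPD libraries had only 474 and 464, and the raffinose libraries 155 and 156. The raffinose and YPD libraries did not overlap in any strain. The same held for each of the 6 genes, and the share over all genes was not counted. The log2 difference of scaled TPM plus 1 (raffinose minus YPD) was -3.05 in WT and -2.98 in K655/657R, whereas K655/657Q had -1.59 (SE 0.076 each), and these values chose the gene set. GLN1 made up 73.0% and 75.4% of the summed TPM of the 6 genes in WT in YPD but 23.5% and 28.4% in raffinose. Across the 12 groups the mean GLN1 level ranged 9.42-fold, in the descending order YPD, 15 min, 30 min and raffinose within each strain. Of 11 pairs of neighbours in the order of group means, 4 overlapped, among them WT and K655/657R in YPD, WT and K655/657R in raffinose, and the 30 min groups.

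The glutamate dehydrogenase genes went separate ways between YPD and raffinose. GDH1, the main NADPH-dependent enzyme, had 269 and 250 scaled TPM in WT in YPD and 327 and 285 in raffinose, with no overlap. In K655/657Q it had 106 and 126 in YPD and 278 and 280 in raffinose, a log2 difference of 1.27 against 0.24 in WT. GDH3 was low throughout and was at 11.8 and 11.4 in WT in YPD and at 27.5 and 24.8 in raffinose. Its log2 differences were 1.11 (WT), 1.08 (K655/657R) and 1.35 (K655/657Q), and the 2 media did not overlap in any strain, as for the other genes. GDH2, the ammonium-releasing enzyme, had 120 and 119 in WT in YPD and 87.8 and 88.5 in raffinose, whereas in K655/657Q it had 29.3 and 30.5 in YPD and 67.8 and 51.8 in raffinose. The GDH2 log2 difference was -0.44 in WT and 0.96 in K655/657Q. The WT value depends on the scaling, with -0.029 for TPM as deposited and 0.28 for ACT1 scaling, while K655/657Q had 1.17 and 1.09. GLT1 lay between 17.8 and 21.0 in YPD and between 12.2 and 13.8 in raffinose over the 3 strains. IDP1 had 94.0 and 86.3 in WT in YPD and 70.8 and 59.8 in raffinose, and 61.8 and 65.7 in K655/657Q in YPD and 76.3 and 76.9 in raffinose. With ACT1 scaling the IDP1 log2 difference in WT turned from -0.46 to 0.25 and that of GLT1 from -0.67 to 0.015. Over all 6357 genes tested with limma, the calls between raffinose and YPD made up 37.5% (WT), 34.3% (K655/657R) and 20.6% (K655/657Q). A call needs a fold of 1.5 or more together with an adjusted p (Benjamini-Hochberg) below 0.05. No call is given for the 6 genes in this contrast.

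In YPD, 3 of the 6 genes fell in K655/657Q against WT: GLN1, GDH1 and GDH2. Without GLN1, 2 of 5 were called. GLN1 fell by 1.62 on the log2 scale, 3.07-fold (SE 0.076, limma adjusted p = 3.57e-10), from 1443 ± 62.2 to 469 ± 7.36 scaled TPM (SD, n = 2 each). The GLN1 levels in YPD also enter the raffinose difference behind the choice of the set. The p-value of GLN1 is therefore not independent of that choice. GDH1 fell by 1.16 (SE 0.097, limma adjusted p = 1.79e-07), from 259 ± 13.8 to 116 ± 14.1. GDH2 showed the largest change of the 6 and fell by 1.97, 3.91-fold (SE 0.13, limma adjusted p = 2.43e-08), from 120 ± 0.83 to 29.9 ± 0.87. For all 6 genes, called or not, both K655/657Q libraries lay below both WT libraries. The share of all genes with such a separation was not counted. IDP1 was at 63.8 ± 2.76 in K655/657Q against 90.1 ± 5.50 in WT, a log2 change of -0.49 (limma adjusted p = 3.1e-04) that stayed under the fold threshold, as did GLT1 with -0.18 (limma adjusted p = 0.0273). GDH3 had a log2 difference of -0.27 with a limma adjusted p of 0.0521. Of all 6357 genes, 13.7% were called in this comparison, 7.06% lower and 6.69% higher. The median log2 change of the 6 genes, GLN1 included, was -0.83 against 0.0078 over all genes. That median is likewise not independent of the choice of the set, and among the 5 genes without GLN1 the middle value was -0.49 (IDP1). The falls of GLN1, GDH1 and GDH2 were called under each of the 11 alternatives and without each of the 4 libraries in turn. With TPM as deposited or scaled to ACT1, GLT1 changed by 0.0026 or 0.24, and its direction is not fixed.

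Markers of carbon source also differed between these YPD libraries. HXT1, a low-affinity glucose transporter gene induced by high glucose, had 5.48 and 4.77 scaled TPM in WT and 20.3 and 19.9 in K655/657Q, a log2 change of 1.79 (SE 0.12, limma adjusted p = 1.56e-08), and 88.3 and 105 in WT at 15 min of the pulse. SUC2, which glucose represses, had 48.8 and 48.3 in WT and 35.0 and 36.0 in K655/657Q. HXT1 was lower in YPD than at 15 min of the pulse in the other strains as well. Its mean was 5.40 against 93.9 in K655/657R and 20.1 against 74.5 in K655/657Q. The glucose left in the YPD cultures at harvest is not given in the sources used here, and its part in the results was not tested.

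None of the 6 genes was called between K655/657R and WT in YPD, in raffinose or at 15 min. In YPD, GLN1 had 1462 ± 31 scaled TPM in K655/657R against 1443 ± 62.2 in WT, with a 95% confidence interval of the log2 difference from -0.14 to 0.18, and GDH2 had 115 ± 0.77 against 120 ± 0.83, with an interval from -0.34 to 0.23. GDH1 was the nearest to a call, with 206 ± 11.6 against 259 ± 13.8 (log2 change -0.33, limma adjusted p = 0.0403, under the fold threshold). The share of all genes called by limma was 1.62% in YPD, 0.173% in raffinose and 0% at 15 min. By the unadjusted p alone (under 0.05), 2 of the 6 genes differed in YPD, 1 in raffinose and 0 at 15 min, against 26.2%, 15.9% and 15.7% of all genes. When K655/657Q was compared with K655/657R in YPD, GLN1 (log2 change -1.64), GDH1 (-0.83), GDH2 (-1.92) and IDP1 (-0.70) fell, with limma adjusted p from 1.79e-10 to 8.01e-06, and 10.3% of all genes were called lower. The test of GLN1 is again not independent of the choice of the set, and without GLN1, 3 of 5 genes were called. With TPM as deposited or scaled to ACT1, GDH1 (-0.58 and -0.39) and IDP1 (-0.44 and -0.25) no longer passed the fold threshold.

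**Figure D2:**
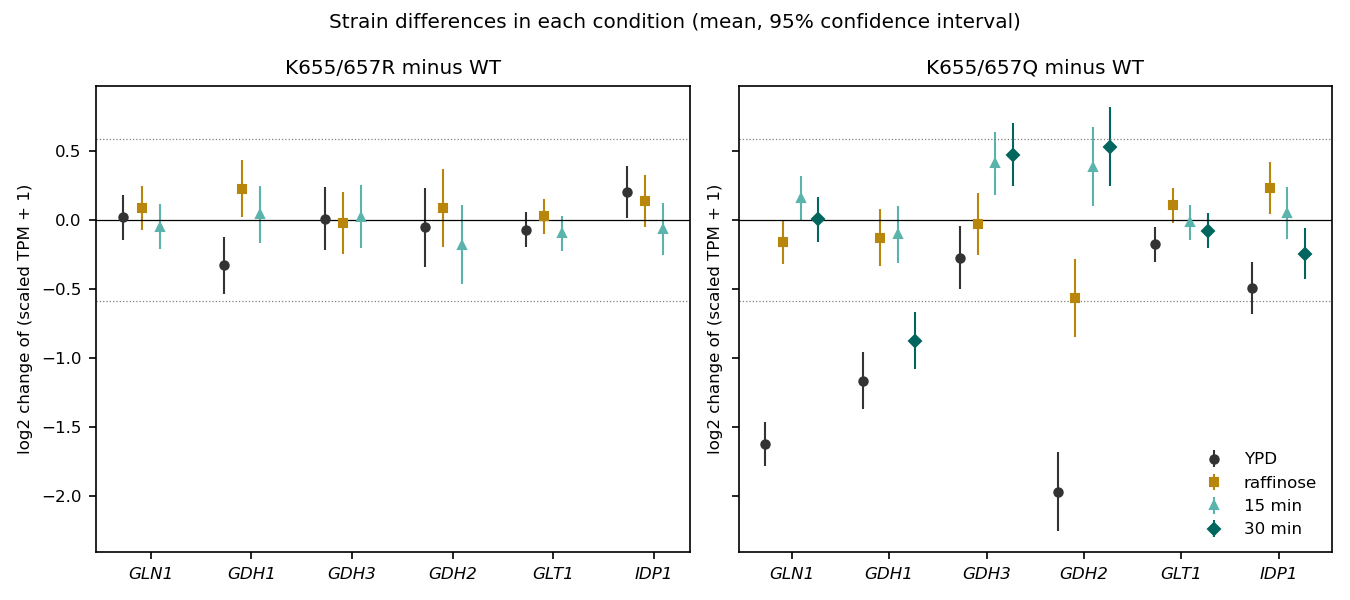
Log2 change of scaled TPM plus 1 (y axis) of K655/657R minus WT and K655/657Q minus WT for the 6 genes (x axis), with 95% confidence intervals from limma; symbols are conditions and dotted lines mark 1.5-fold. K655/657R stays within 1.5-fold of WT, while K655/657Q lies below WT in YPD for GLN1 (-1.62), GDH1 (-1.16) and GDH2 (-1.97).

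In raffinose the 3 strains lay close together. GLN1 had 174 ± 17.9 scaled TPM in WT and 185 ± 10.7 in K655/657R, and K655/657Q had 155 ± 0.95 (SD, n = 2 each). None of the 6 genes was called between K655/657Q and WT, while limma called 3.57% of all genes, and 2 had an unadjusted p under 0.05, against 34.2% of all genes. GDH2 was the nearest, with 67.8 and 51.8 in K655/657Q against 87.8 and 88.5 in WT, a log2 change of -0.56 (SE 0.13, limma adjusted p = 0.00817), and it passed without K655/657Q raffinose replicate 1 (-0.76) or with ACT1 scaling (-0.71). Against K655/657R, GDH2 fell by 0.65 (SE 0.13, limma adjusted p = 0.00611), and 1.01% of all genes were called lower. The K655/657R libraries of GDH2 differed from each other, at 114 and 77.3, and the call was lost without K655/657R raffinose replicate 1 (-0.38) or K655/657Q raffinose replicate 2 (-0.46), and when only these 2 groups were fitted (adjusted p = 0.171).

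The response to raffinose was tested between K655/657Q and WT for the 5 genes other than GLN1. The difference of differences (raffinose minus YPD, K655/657Q minus WT) was 1.40 for GDH2 (SE 0.19, limma adjusted p = 3.11e-05), 1.03 for GDH1 (SE 0.14, limma adjusted p = 2.56e-05) and 0.72 for IDP1 (SE 0.12, limma adjusted p = 2.77e-04), all called, against 10.7% of all genes called in that direction. The raffinose levels of GDH1 and IDP1 were not called different between these strains. GDH3 (0.24, adjusted p = 0.224) and GLT1 (0.28, adjusted p = 0.0155, under the fold threshold) were not called. For GLN1 the same quantity was 1.46 and is given without a test. ACT1 scaling removed the calls of GDH1 (0.44) and IDP1 (0.14), TPM as deposited that of IDP1 (0.52), and fitting all 24 libraries that of IDP1 (adjusted p = 0.0648). For K655/657R minus WT, 0 of the 5 genes were called by limma and 1, GDH1 (0.56, adjusted p = 0.0291), had an unadjusted p under 0.05, against 2.47% of all genes called and 23.4% with such a p.

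When glucose was added back to raffinose cultures, GDH2 fell within 15 min in all 3 strains. In WT it went from 87.8 and 88.5 scaled TPM to 15.8 and 16.8, a log2 change of -2.37 (SE 0.13, limma adjusted p = 2.57e-10). In K655/657R it fell by 2.63 to 14.6 and 13.9 (adjusted p = 6.31e-11), and in K655/657Q by 1.42 to 20.7 and 22.4 (adjusted p = 1.2e-07). The 15 min libraries lay below all raffinose libraries. The fall was smaller in K655/657Q than in WT by 0.95 (SE 0.19, limma adjusted p = 0.0077), where 1.29% of all genes were called in that direction, and GDH2 was the only gene called among the 5 tested. For K655/657R minus WT no gene of the 5 was called, and limma called 0.283% of all genes; 0 of the 5 had an unadjusted p under 0.05, against 19.5% of all genes. Among the other 4 genes, IDP1 fell in K655/657R by 0.60 (adjusted p = 1.27e-05), a call lost with a pseudocount of 5 (-0.56), with ACT1 scaling (-0.16), without K655/657R raffinose replicate 2 (-0.57) or without K655/657R 15 min replicate 1 (-0.56). The calls thus numbered 1 of 5 genes (WT), 2 (K655/657R) and 1 (K655/657Q), all falls, where 22.9%, 24.5% and 21.8% of all genes were called lower. GLN1, described without a test, was at 348 and 346 in WT at 15 min, above its raffinose level and below its YPD level, while K655/657R had 328 and 344 and K655/657Q had 397 and 379. GDH1 reached its highest levels at 15 min, with group means of 438 (WT), 451 (K655/657R) and 407 (K655/657Q), each within 1.5-fold of raffinose.

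At 15 min, none of the 6 genes was called between K655/657Q and WT, and limma called 4.73% of all genes; 2 had an unadjusted p under 0.05, against 34.3% of all genes. GDH3 had 23 and 26.9 scaled TPM in K655/657Q and 17.9 and 19.0 in WT, a log2 change of 0.41 (SE 0.11, limma adjusted p = 0.0113) under the fold threshold. Against K655/657R, none was called either, where 5.16% of all genes were, and 3 had an unadjusted p under 0.05, against 40.6% of all genes. There GDH2 was 0.57 higher in K655/657Q (adjusted p = 0.00563), just under the fold threshold, which it passed with TPM as deposited (0.66), a pseudocount of 0.1 or upper quartile scaling, or without K655/657R 15 min replicate 1 or K655/657Q 15 min replicate 1.

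By 30 min the strains had parted in GDH1. WT had 306 and 283 scaled TPM and K655/657Q 151 and 170, and the single K655/657R library had 299. The log2 change of GDH1 in K655/657Q against WT was -0.87 (SE 0.097, limma adjusted p = 1.54e-05), the only call among the 6 genes, where 2.8% of all genes were called lower. GLN1 had 228 and 257 in WT and 250 and 236 in K655/657Q, which overlap. GDH2 was 0.53 higher (21.1 and 20.8 against 14.4 and 14.0, adjusted p = 0.0105) and GDH3 0.47 higher (16.2 and 17.7 against 11.8 and 12, adjusted p = 0.0053) in K655/657Q, both under the fold threshold. With TPM as deposited these 2 genes passed it (0.76 and 0.69), and the count rose to 3. GDH1 therefore lay below WT while GDH2 and GDH3 lay above it in both K655/657Q libraries.

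From raffinose to 30 min, GDH2 (-2.55, limma adjusted p = 9.26e-11) and GDH3 (-1.07, limma adjusted p = 2.05e-07) fell in WT, 2 of the 5 genes tested, against 22.3% of all genes called lower. In K655/657Q, GDH2 (-1.46), GDH1 (-0.80) and IDP1 (-0.82) fell, with limma adjusted p from 9.65e-08 to 2.27e-06, against 21.3% of all genes. With ACT1 scaling GDH1 (-0.39) and IDP1 (-0.41) were not called. The change differed between K655/657Q and WT in GDH2 by 1.10 (SE 0.19, limma adjusted p = 0.0014) and in GDH1 by -0.75 (SE 0.14, limma adjusted p = 0.00232), where 4.04% of all genes were called. For GDH1 this call was lost with all 24 libraries fitted (adjusted p = 0.0534), with TPM as deposited (-0.49) and with ACT1 scaling (-0.58). From 15 to 30 min, GLN1 (-0.67, limma adjusted p = 5.72e-06) and GDH1 (-1.34, limma adjusted p = 3.32e-08) fell in K655/657Q, against 6.4% of all genes called lower, and the call of GLN1 was lost with TPM as deposited (-0.57), ACT1 scaling (-0.53) and upper quartile scaling (-0.53). In WT only GDH3 fell in that interval, by 0.59 (limma adjusted p = 5.3e-04), against 5.79% of all genes. That value sits at the threshold and lost its call with a pseudocount of 5 (-0.47), with ACT1 (-0.56) or upper quartile (-0.49) scaling, without WT 15 min replicate 2 (-0.55) or without WT 30 min replicate 1 (-0.58). GLN1 in WT changed by -0.52 and GDH1 by -0.57 over the same time, under the fold threshold.

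At 30 min only some of the genes tested were called different from YPD. In WT, the log2 change from YPD to 30 min was -2.99 for GDH2 (SE 0.13, limma adjusted p = 8.65e-12) and -0.80 for IDP1 (adjusted p = 4.78e-07), 2 of the 5 genes tested, against 25.5% of all genes called lower. With ACT1 scaling IDP1 changed by 0.15 instead. GDH1, GDH3 and GLT1 were not called in WT. GDH3 was at 11.9 ± 0.15 scaled TPM at 30 min against 11.6 ± 0.26 in YPD, and GDH1 at 294 ± 16.5 against 259 ± 13.8. GLN1 was at 242 ± 20.7 scaled TPM against 1443 ± 62.2 in YPD, a log2 difference of -2.57 without a test. In K655/657Q only GDH3 was called, 0.79 higher than in YPD (SE 0.11, limma adjusted p = 8.41e-06), against 16% of all genes called higher, and GLN1 was at 243 ± 9.58 against 469 ± 7.36.

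The balance between the 2 paralogs and between the opposing dehydrogenases moved with these changes. GDH3 made up 4.19% and 4.36% of the summed GDH1 and GDH3 TPM in WT in YPD, 7.75% and 8.02% in raffinose, 3.89% and 4.22% at 15 min and 3.72% and 4.08% at 30 min. In K655/657Q the share was 8.85% and 6.42% in YPD, 7.58% and 9.29% in raffinose, 5.56% and 5.96% at 15 min and 9.68% and 9.46% at 30 min. The K655/657Q libraries lay above the WT libraries in YPD, at 15 min and at 30 min, and overlapped them in raffinose. In YPD the K655/657R libraries, at 4.89% and 5.85%, also lay above WT. At 15 min they had 4.27% and 3.76%, which overlap WT. The ratio of GDH1 to GDH2 TPM was 2.24 and 2.10 in WT in YPD and 28.0 and 25.8 at 15 min. In K655/657Q it was 3.61 and 4.12 in YPD, above WT, and 18.8 and 18.9 at 15 min, below WT. At 30 min it was 21.3 and 20.3 in WT and 7.17 and 8.17 in K655/657Q. These shares are descriptions, with 2 libraries per group.

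**Figure D3:**
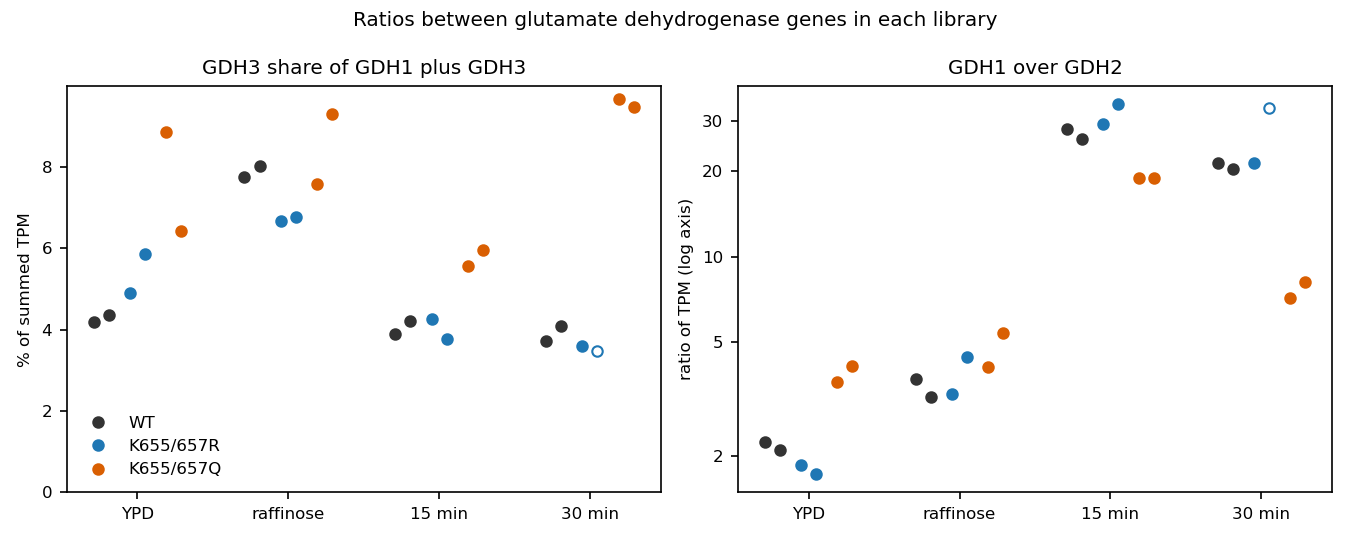
GDH3 as % of the summed GDH1 and GDH3 TPM (left, from 0) and the ratio of GDH1 to GDH2 TPM (right, log axis) in each library by condition; the open circle is K655/657R 30 min replicate 2. At 30 min the GDH3 share is 9.68% and 9.46% in K655/657Q and 3.72% and 4.08% in WT.

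Genes around this pathway were grouped by role into lists. All 3 ammonium permease genes fell in K655/657Q against WT in YPD. MEP1 fell by 1.55 (SE 0.075, limma adjusted p = 5.91e-10), from 36.3 ± 0.98 to 11.8 ± 0.092 scaled TPM (SD, n = 2 each), MEP3 by 1.27 (adjusted p = 8.83e-08) and MEP2 by 0.77 (adjusted p = 7.28e-06), against 7.06% of all genes called lower; with ACT1 scaling 2 of the 3 were called. In raffinose none of the 3 was called. Of 13 genes in the list for the breakdown or transamination of glutamate and glutamine, 6 fell and 0 rose in YPD. That list also holds PUT1 and PUT2, which break down proline to form glutamate. The falls include PUT1, the proline oxidase, by 1.64 (limma adjusted p = 1.56e-08) and ARO9, an aromatic aminotransferase, by 1.48 (limma adjusted p = 4.54e-08). BAT2, the cytosolic branched-chain aminotransferase, fell by 1.11 (limma adjusted p = 1.54e-07). With ACT1 scaling 3 fell and 2 rose. The median log2 change of this list was -0.52 and that of all genes 0.0078.

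Of 15 genes whose enzymes use the amide group of glutamine, 6 fell and 2 rose in K655/657Q in YPD, against 7.06% of all genes lower and 6.69% higher, and with ACT1 scaling 3 fell and 4 rose. ASN1, asparagine synthetase, fell by 1.13 (limma adjusted p = 8.03e-08) and URA8, a CTP synthase, by 1.09 (limma adjusted p = 1e-07). Without single libraries the falls numbered 4 to 7. The 2 that rose were URA7, the other CTP synthase, and GUA1, GMP synthase, by 0.94 and 0.70. Of 14 genes for the supply of 2-oxoglutarate and citrate, 3 fell and 2 rose, against the same shares of all genes, and with ACT1 scaling 1 fell and 3 rose. Without K655/657Q YPD replicate 2 the rises numbered 1. CIT2, the peroxisomal citrate synthase, fell by 1.14 (limma adjusted p = 4.03e-06), ODC1, a mitochondrial 2-oxodicarboxylate carrier, by 0.94 (limma adjusted p = 6.76e-07) and PYC2, pyruvate carboxylase, by 0.79 (limma adjusted p = 3.21e-06), while the mitochondrial ACO1 and IDH1 rose by 0.68 and 0.67. Of 9 genes for NADPH supply only ALD6, cytosolic aldehyde dehydrogenase, fell, by 1.15 (limma adjusted p = 0.00219), a count near the 7.06% of all genes called lower. It was 2 without WT YPD replicate 2 and 3 without K655/657Q YPD replicate 2. Of 17 nitrogen regulator genes tested only GAT1, a GATA factor, fell, by 1.03 (limma adjusted p = 6.5e-07), a share below that of all genes. Without K655/657Q YPD replicate 2 the falls numbered 3, and with ACT1 scaling 3 regulators were called higher.

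In 2 further strain contrasts the lists held fewer calls than in K655/657Q against WT in YPD. For K655/657R against WT in YPD, 2 of 15 genes that use the glutamine amide and 1 of 14 supply genes were called higher. In the same contrast 1 of 13 genes in the breakdown or transamination list was called lower, and 1.62% of all genes were called. In K655/657Q against WT in raffinose, where 3.57% of all genes were called, CPA1, the small subunit of carbamoyl phosphate synthetase, fell by 0.66 (limma adjusted p = 0.0053), ALD6 fell by 1.36 (limma adjusted p = 0.0021) and SOL4, a 6-phosphogluconolactonase, rose by 0.71 (limma adjusted p = 0.00864). The call of CPA1 was lost without WT raffinose replicate 1, and that of SOL4 without WT raffinose replicate 1 or K655/657Q raffinose replicate 1, with a pseudocount of 5 and with ACT1 scaling. In K655/657R against WT in YPD, where 1.62% of all genes were called, CPA1 rose by 0.88 (limma adjusted p = 0.00172) and CIT2 by 0.62 (limma adjusted p = 0.00631), while ARO9 fell by 0.74 (limma adjusted p = 6.82e-04). The call of CIT2 was lost with TPM as deposited and without K655/657R YPD replicate 1.

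**Figure D4:**
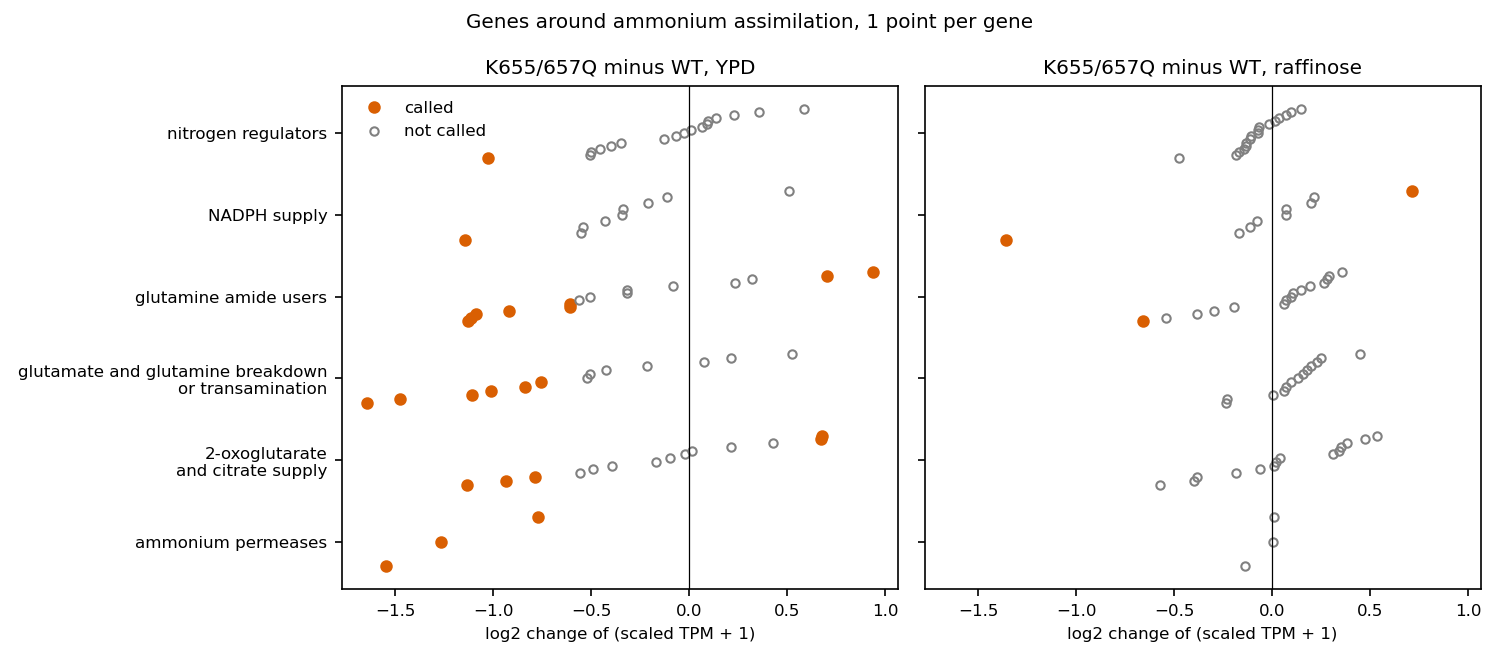
Log2 change of scaled TPM plus 1 (x axis) in K655/657Q minus WT for the genes of each list (y axis), 1 point per gene, in YPD (left) and raffinose (right). Filled points are called and open points are not. In YPD 6 of 13 genes in the list for glutamate and glutamine breakdown or transamination, which also holds PUT1 and PUT2, are called lower. All 3 permease genes are also called lower in YPD, and no gene of either list is called in raffinose.

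Over the 12 group means, GLN1 and GLT1 had the most similar profiles of the 6 genes (Pearson r = 0.93), followed by GDH2 and IDP1 (r = 0.91), while GLN1 and GDH1 did not follow each other (r = -0.25). Among all tested genes, those most like GLN1 were VMA3 (r = 0.97), PPN2 (r = 0.97) and FBA1 (r = 0.96), where VMA3 encodes a subunit of the vacuolar ATPase and FBA1 the glycolytic aldolase. GDH2 was closest to CEP3 (r = 0.98), HVG1 (r = 0.98) and YMR155W (r = 0.97). GDH3 was closest to PDC6 (r = 0.97), a minor pyruvate decarboxylase, SPO20 (r = 0.97) and SEO1 (r = 0.95). GDH1 had no neighbour above r = 0.87 with SNN1, CPA1 and YPL276W. GLT1 was closest to VOA1, FPY1 and VMA1 (r = 0.97, 0.97 and 0.96) and IDP1 to YMR158W-B, YPT53 and IMP2 (r = 0.98, 0.98 and 0.97). These are descriptions over 12 groups that share strains, media and scaling.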

How the data were processed

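Poly(A) RNA-seq libraries were made with the NEBNext Ultra II Directional kit. The authors trimmed reads with fastp 0.23.2, quantified them with kallisto 0.48.0 against the R64-1-1 transcriptome and deposited TPM for 24 libraries, 1 column each. Counts were not used here, so depth is unknown. TPM were divided by median-of-ratios factors and fitted as log2 of scaled TPM plus 1 with limma 3.58.1 (lmFit, eBayes with trend) in R 4.3.3, with one mean per strain and condition over 23 libraries and 11 residual degrees of freedom. The 6357 genes tested had an average over these libraries of 1 TPM or more. Fold changes are on the log2 scale with this pseudocount, which understates changes of low genes such as GDH3 and GLT1. A call is an adjusted p under 0.05 with a fold of at least 1.5. With 2 libraries against 2, an exact permutation test cannot go below p = 0.333. Statements that the libraries of 2 groups did or did not overlap are therefore descriptions, and their share over all genes was not counted. The labels number the replicates but do not state separate cultures, so p-values measure the spread between these libraries. No 2 libraries were identical.

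GLN1 was not tested between raffinose and another condition, in differences of such responses, or at 30 min against YPD. It was tested between strains within YPD and within raffinose. Those libraries also enter the contrast behind the choice of the set, so these tests of GLN1 are not independent of it. The 6 genes, the lists and the tests were chosen with earlier results of these data known. All 6 genes are named. Named from the lists were, per list and strain contrast in YPD or raffinose, up to 3 called genes of at least 10 TPM on average by size of change, and URA7, GUA1, ACO1 and IDH1 were added after their values were seen, to name the rises. A list gene that this rule selects is not reported here. Profiles were compared by Pearson r over group means. Fits were tested on simulated data. Sequences and loci are from the R64 reference in Python 3.11.15 with biopython 1.88. Alternatives changed the pseudocount, filter, scaling, threshold, libraries fitted and replicate block, or left out each library in turn.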

Additional observations from a re-analysis of the deposited data

Results flagged for a closer look

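The response of 3 genes to raffinose differed between K655/657Q and WT by the test of the difference of log2 changes (raffinose minus YPD, K655/657Q minus WT): GDH2 by 1.40 (limma adjusted p = 3.11e-05), GDH1 by 1.03 (adjusted p = 2.56e-05) and IDP1 by 0.72 (adjusted p = 2.77e-04). For GDH2, both K655/657Q raffinose libraries were above both K655/657Q YPD libraries, while both WT raffinose libraries were below both WT YPD libraries. The response to glucose also differed. GDH2 differed by 0.95 from raffinose to 15 min (adjusted p = 0.0077) and by 1.10 from raffinose to 30 min (adjusted p = 0.0014), and GDH1 by -0.75 from raffinose to 30 min (adjusted p = 0.00232). Each of these differences rests on 2 libraries per group, and those of GDH1 and IDP1 change with the scaling. The direction of GDH2 in WT between raffinose and YPD also does, from -0.44 to -0.029 with TPM as deposited and 0.28 with ACT1 scaling.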

How the results depend on the processing

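Median log2 changes of all genes ran from -0.52 to 0.88 over 27 comparisons with ACT1 scaling and from -0.22 to 0.42 with TPM as deposited, and values below are to be read against these shifts. In K655/657Q against WT in YPD, 874 genes were called, 48.6% of them higher, against 1780 and 92.6% with ACT1 scaling, 991 and 73.3% with TPM as deposited and 2655 without the fold threshold. With TPM as deposited, GLN1 (raffinose minus YPD) was -2.64 (WT), -2.54 (K655/657R) and -1.38 (K655/657Q), and it was -2.33, -2.35 and -1.46 with ACT1 scaling, -2.90 in K655/657R and -1.54 in K655/657Q with upper quartile scaling, and -1.56 in K655/657Q with a pseudocount of 5. Relative to the median of all genes it stayed between -3.08 and -2.99 in WT over the 4 scalings. Without single libraries it ran from -3.15 to -2.94 in WT, from -3.04 to -2.92 in K655/657R and from -1.60 to -1.57 in K655/657Q.

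With ACT1 scaling the sign turned in raffinose against YPD for GLT1 (0.015), GDH2 (0.28) and IDP1 (0.25) in WT and for the same 3 genes in K655/657R (0.022, 0.32 and 0.093), for GLT1 in K655/657Q against WT in YPD (0.24), at 30 min against YPD in WT (0.34) and K655/657Q (0.043) and in the difference of raffinose responses (-0.27), for GDH3 in K655/657Q against K655/657R in YPD (0.12), for IDP1 at 30 min against YPD in WT (0.15) and for GDH2 there in K655/657Q (0.030). With TPM as deposited it turned for GLT1 in K655/657Q against WT in YPD (0.0026) and for GDH2 in raffinose against YPD in K655/657R (0.14). With median-of-ratios scaling ACT1 itself changed by -0.72 in raffinose against YPD in WT. It changed by -0.45 in K655/657Q against WT in YPD and by -0.97 at 30 min against YPD in WT. In the difference of raffinose responses (K655/657Q minus WT) it changed by 0.59. Scaling to ACT1 shifts the other genes the opposite way by about these amounts. Which scaling is nearer to the RNA levels in the cells was not tested.

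Counts of the genes called (tested value first) that moved by over 1.5 times were as follows. Without the fold threshold, K655/657Q against WT rose from 3 to 5 in YPD, from 0 to 1 in raffinose and at 15 min and from 1 to 3 at 30 min; K655/657R against WT in YPD and its raffinose response rose from 0 to 1; K655/657Q against K655/657R rose from 1 to 3 in raffinose and from 0 to 2 at 15 min; 15 min against raffinose rose from 1 to 5 in WT, from 2 to 4 in K655/657R and from 1 to 3 in K655/657Q; and 30 min rose from 1 to 3 against 15 min in WT and from 1 to 5 against YPD in K655/657Q. With TPM as deposited and with ACT1 scaling alike, K655/657Q against K655/657R in YPD fell from 4 to 2, 15 min against raffinose rose from 1 to 2 in WT and K655/657Q, and in K655/657Q 30 min fell from 2 to 1 against 15 min and rose from 1 to 2 against YPD. TPM as deposited also gave 3 for K655/657Q against WT at 30 min and for 30 against 15 min in WT, and 1 for K655/657Q against K655/657R at 15 min. ACT1 scaling gave 1 for K655/657Q against WT in raffinose, 0 for 30 against 15 min in WT, 1 for 30 min against raffinose in K655/657Q and 1 for its raffinose response. Upper quartile scaling gave 1 for K655/657Q against K655/657R at 15 min, 2 against WT at 30 min, 0 and 1 for 30 against 15 min in WT and K655/657Q and 2 for 30 min against YPD in K655/657Q. A pseudocount of 0.1 gave 1 for K655/657Q against K655/657R at 15 min and 2 for 15 min against raffinose in K655/657Q. A pseudocount of 5 gave 1 for 15 min against raffinose in K655/657R and 0 for 30 against 15 min in WT. Fitting only the groups compared gave 0 for K655/657Q against K655/657R in raffinose, and all 24 libraries gave 1 for the 30 min response of K655/657Q. Smaller moves included 2 to 4 for the raffinose response of K655/657Q, 3 for 30 min against raffinose or YPD in WT and 4 for 30 min against raffinose in K655/657Q.

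Leaving out single libraries, the counts ran from 0 to 1 for K655/657Q against WT in raffinose (1 without K655/657Q raffinose replicate 1), against K655/657R in raffinose (0 without K655/657R raffinose replicate 1 or K655/657Q raffinose replicate 2) and at 15 min (1 without replicate 1 of either group), and for the raffinose response of K655/657R (1 without WT YPD replicate 2, WT raffinose replicate 1 or K655/657R raffinose replicate 2). They ran from 1 to 2 for 15 min against raffinose in WT (2 without WT raffinose replicate 1), K655/657R (1 without its raffinose replicate 2 or 15 min replicate 1) and K655/657Q (2 without its 15 min replicate 1), for 30 against 15 min in WT (2 without WT 30 min replicate 2), for 30 min against YPD in K655/657Q (2 without either YPD replicate or 30 min replicate 2) and for the 15 min response of K655/657Q minus WT (2 without K655/657Q raffinose replicate 2).

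Whether the replicate numbers pair the samples was not settled. In the study, glucose was added to raffinose cultures and samples were taken over time. The labels do not say which libraries share a culture. Over 25 pairs of groups the correlation of same-numbered deviations ran from -0.36 to 0.33 and exceeded 0.1 in 11. With the replicate block, GLN1 fell by 1.62 in K655/657Q in YPD, and no call of the 6 genes changed. TPM carry no counts, so the limit set by depth is unknown.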

Other observations

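The library left out of the fits, K655/657R 30 min replicate 2, had a median of 8.19 TPM as deposited over all genes, against 14.5 TPM in replicate 1 of its group. Of the 6 genes, GLN1 was at 73.8 TPM against 239.6, GDH1 at 224 against 297, GDH2 at 6.75 against 14.0, GDH3 at 8.05 against 11.1, GLT1, the longest of the 6 genes, at 8.61 against 14.0 and IDP1 at 46.2 against 43.0. After scaling over all 24 libraries, the log2 difference (replicate 2 minus replicate 1) was -0.87 for GLN1 and -0.21 for GDH2, and 0.41 for GDH1, 0.34 for GDH3, 0.11 for GLT1 and 0.91 for IDP1. The scaled GLN1 difference was lower than that of all but 7.27% of genes.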
